A study of Mus musculus with 6 samples.

Results

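The 10 genes described here are Stra8, Rec8, Sycp1, Sycp3, Dazl, Ddx4, Dmc1, Sohlh2, Smc1b and Stag3, all with roles in germ cells or in meiosis. They were taken by name from a table of 23235 gene entries, in which each has 1 entry. RNA was sequenced from 6 samples of E14Tg2a, a mouse embryonic stem cell line, at passages 37 to 40. Of these, 3 samples were pluripotent embryonic stem cells (ESCs) kept in leukemia inhibitory factor (LIF). The other 3 were neuronal cells (NCs), the name used for monolayers of the same line grown without LIF and with 1 µM retinoic acid (RA) for 48 h. No vehicle control, intermediate time or second line is among the samples, so that withdrawal of LIF and addition of RA cannot be told apart. For each gene the table gives 1 FPKM value per condition (sequenced fragments scaled by transcript length and by the mapped total), which pools the 3 samples. The spread between replicates is therefore unknown and no difference below was tested. The question was whether Stra8, an RA target, was higher in NCs with or without the rest of the meiotic genes.

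Germ cells leave mitosis and enter meiosis under the control of RA in the embryonic ovary and the postnatal testis. Stra8 (stimulated by retinoic acid 8) encodes a nuclear factor that acts with its partner MEIOSIN to start this switch, in cells that DAZL has made competent. Chromosomes are then held along an axis of meiotic cohesin (REC8, SMC1B, STAG3) with SYCP3, are zipped by SYCP1, and are recombined by DMC1. Many of these genes have methylated or Polycomb-bound promoters in somatic cells. Stra8 was first found as an RA-induced gene in cultured embryonal carcinoma cells, which are not germ cells.

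The 10 genes differed in both directions (see the plot of FPKM by gene). Stra8 had 5.15 FPKM in ESCs against 340.2 in NCs, a 66.0-fold higher value. Rec8, Sohlh2 and Dazl were higher in NCs by 2.18- to 3.52-fold, while Stag3, Smc1b and Sycp3 were lower by 2.46- to 4.71-fold. Ddx4, Sycp1 and Dmc1 differed by less than 2-fold. In a cell population, a change in the number of expressing cells and a change in RNA per cell cannot be told apart.

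**Figure D1:**
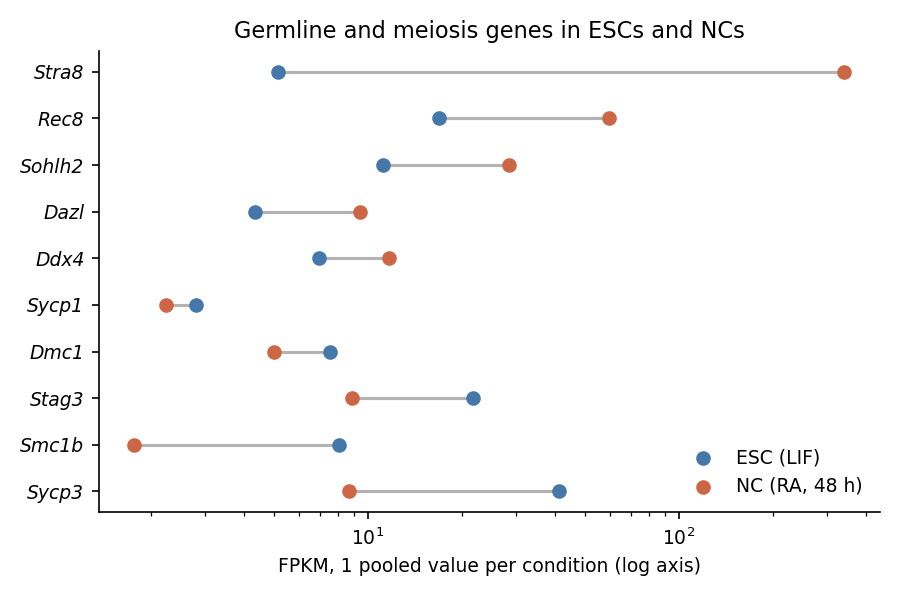
FPKM of each of the 10 genes in ESCs (blue) and NCs (orange) on a log axis, ordered by the log2 difference, with 1 pooled value per condition and no error bar because replicate values were not in the table. Stra8 spans the widest range, from 5.15 to 340.2 FPKM, and the points cross from higher in NCs (Stra8 to Ddx4) to lower in NCs (Sycp1 to Sycp3).

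Promoter sequences of a few of these genes are shown because Stra8 stood apart from the others and Rec8, Sohlh2 and Sycp3 differed from it in size or direction. Each holds 250 bases before and 50 bases from the annotated start in RefSeq on GRCm38.p6. The Stra8 window is chr6:34920698-34920997 (plus strand), that of Rec8 chr14:55617916-55618215 (plus strand), that of Sohlh2 chr3:55181794-55182093 (plus strand) and that of Sycp3 chr10:88459337-88459636 (plus strand). The RefSeq start of Stra8 lies inside the gene as GENCODE draws it, so the window holds the RefSeq start alone. Capitals mark matches to the motifs named in the next paragraph.
Stra8: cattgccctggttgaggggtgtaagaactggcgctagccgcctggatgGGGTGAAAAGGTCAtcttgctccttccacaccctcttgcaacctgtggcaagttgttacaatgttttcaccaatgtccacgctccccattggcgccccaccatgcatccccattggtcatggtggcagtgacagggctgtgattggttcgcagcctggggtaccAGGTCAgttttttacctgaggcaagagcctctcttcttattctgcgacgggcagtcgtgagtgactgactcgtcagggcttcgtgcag
Rec8: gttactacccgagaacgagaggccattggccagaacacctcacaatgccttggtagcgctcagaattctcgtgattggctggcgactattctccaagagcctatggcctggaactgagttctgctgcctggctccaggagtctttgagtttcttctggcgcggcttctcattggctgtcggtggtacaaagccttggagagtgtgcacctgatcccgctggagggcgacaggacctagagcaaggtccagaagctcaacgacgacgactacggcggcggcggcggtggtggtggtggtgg
Sohlh2: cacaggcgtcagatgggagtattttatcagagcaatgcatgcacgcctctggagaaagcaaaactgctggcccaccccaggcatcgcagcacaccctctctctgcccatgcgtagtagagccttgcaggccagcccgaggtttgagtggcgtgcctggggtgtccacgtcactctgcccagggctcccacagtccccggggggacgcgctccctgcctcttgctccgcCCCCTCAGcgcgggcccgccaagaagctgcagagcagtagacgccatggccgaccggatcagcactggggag
Sycp3: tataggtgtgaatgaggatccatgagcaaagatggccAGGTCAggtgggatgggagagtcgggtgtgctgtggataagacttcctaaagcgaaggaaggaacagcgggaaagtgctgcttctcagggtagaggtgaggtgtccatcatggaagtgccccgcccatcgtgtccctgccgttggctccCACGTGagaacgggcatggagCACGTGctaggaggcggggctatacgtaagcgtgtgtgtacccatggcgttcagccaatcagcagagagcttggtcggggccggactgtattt

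The 10 promoters were searched on both strands for the 6-base sites of nuclear receptors (AGGTCA or GGGTCA, and with TT in the middle AGTTCA or GGTTCA), an E-box (CACGTG), an E2F motif (GGCGGGA) and the motif assigned to STRA8 and MEIOSIN (CNCCTCAG). Of the 10, 3 held a receptor site (Stra8, Sycp3 and Dmc1), beside 43.7% of all 32851 promoters in the RefSeq table. Stra8 held 2 copies of AGGTCA, at positions -194 and -38 from the start. When the sites were widened to allow TGA as well as TCA at the end, the first of these closed a direct repeat with a spacing of 2 bases, from position -202. Such a repeat lay in 0.472% of all promoters and in no other of the 10. Repeats with a spacing of 1 or 5 bases, which RA receptors also bind, were in none of the 10 windows. Other spacings and inverted repeats were not searched. The search for repeats, with its widened sites, was chosen after the Stra8 sequence was seen, so 0.472% is not a test of rarity.

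An E-box was in 4 of the 10 windows (Ddx4, Stag3, Sycp1 and Sycp3) and in 7.15% of all promoters. Sycp3 had 2 of them, at positions -64 and -43. The STRA8 and MEIOSIN motif was in 3 windows (Dazl, Sohlh2 and Sycp1) against 7.94% of all promoters, and the E2F motif was in the Ddx4 window alone, against 11.3%. None of these motifs was in the Rec8 or Smc1b window. CpG content, as observed over expected CpG, ran from 0.43 in Stra8 to 1.08 in Smc1b, beside a median of 0.38 over all promoters. Among the genes lower in NCs, Stag3 had 1.06 and Sycp3 0.67. A match is a description of the letters and not a bound site.

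Differences are given on log2(FPKM + 0.1), and a gene was counted as higher or lower when this difference was at least 1 (2-fold) in size and the mean of both conditions at least 0.5 FPKM. All 10 genes passed the filter on the mean. Of these, 4 were higher in NCs, beside 11.9% of the 13955 entries that passed it, and 3 were lower, beside 10.2% of the entries. Both shares also stand beside the counts of each gene list below. The median difference of the 10 was 0.22, against -0.03 over the 13955 entries, and -0.31 without Stra8. When both conditions were scaled to the same sum of FPKM, which moves differences up by about 0.29 and calls 17.4% of entries higher and 6.86% lower, Ddx4 joined the higher genes at 1.03 and Stag3 left the lower ones, just inside 2-fold. With a pseudocount of 1 in place of 0.1, Dazl was within the limit at 0.97. No gene of the 10 changed direction under either setting.

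Gene positions are those of GENCODE on GRCm38. Stra8 (chromosome 6, 34920163 to 34939344, plus strand) had a log2 difference of 6.02. It ranked 45 among the 13955 entries, of which 0.315% had a larger one. Its level ranked 8935 of 23235 entries in ESCs and 228 in NCs, where 0.977% of entries were higher. Within the set it moved from 8 of 10 in ESCs to the highest gene in NCs, at 5.69 times the next one, Rec8. The FPKM of the other 9 genes summed to 120.7 in ESCs and 136.0 in NCs. Rec8 made up 17.0 of the first sum and 59.8 of the second. Sohlh2, Dazl and Ddx4 were also above their ESC values, while Sycp1, Dmc1, Stag3, Smc1b and Sycp3 were below theirs.

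**Figure D2:**
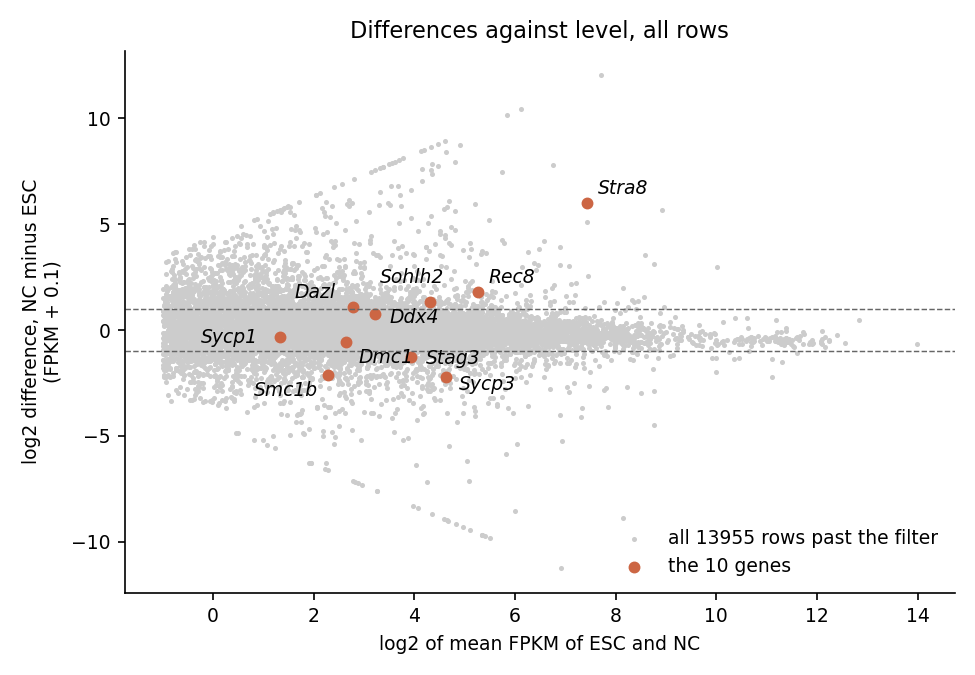
Log2 difference between NCs and ESCs (vertical axis, FPKM + 0.1) against the log2 of the mean FPKM of both conditions (horizontal axis) for the 13955 entries past the filter (grey) and the 10 genes (orange), with dashed lines at 2-fold. Stra8 lies at 6.02 among the highest points at its level, while the other 9 genes lie between -2.22 and 1.81.

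Among 15 genes listed as responsive to RA, 14 were higher in NCs and the median difference was 5.69. Stra8, placed on this list by choice, ranked 5 of the 15 by difference. The list was chosen with earlier results of these data known. Hoxb1, a hindbrain Hox gene with RA response elements, had a difference of 7.96, from 0.126 to 56.1 FPKM. Cyp26a1, which degrades RA, had 7.79, from 0.874 to 215 FPKM. Rarb, an RA receptor gene that RA itself induces, had 6.81, from 0.128 to 25.5 FPKM, and Meis2, a Hox cofactor, had 6.08, from 0.649 to 50.7 FPKM. Stra8 differed from these 4 in its starting level, since its 5.15 FPKM in ESCs exceeded theirs. Crabp2, a carrier of RA in the cell, was chosen after its value was seen and was the one gene of the list with a higher NC level than Stra8, from 18.3 to 949.8 FPKM. Tgm2, also chosen after its value was seen, was the gene within the limit, at 6.90 FPKM in ESCs against 5.96 in NCs.

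**Figure D3:**
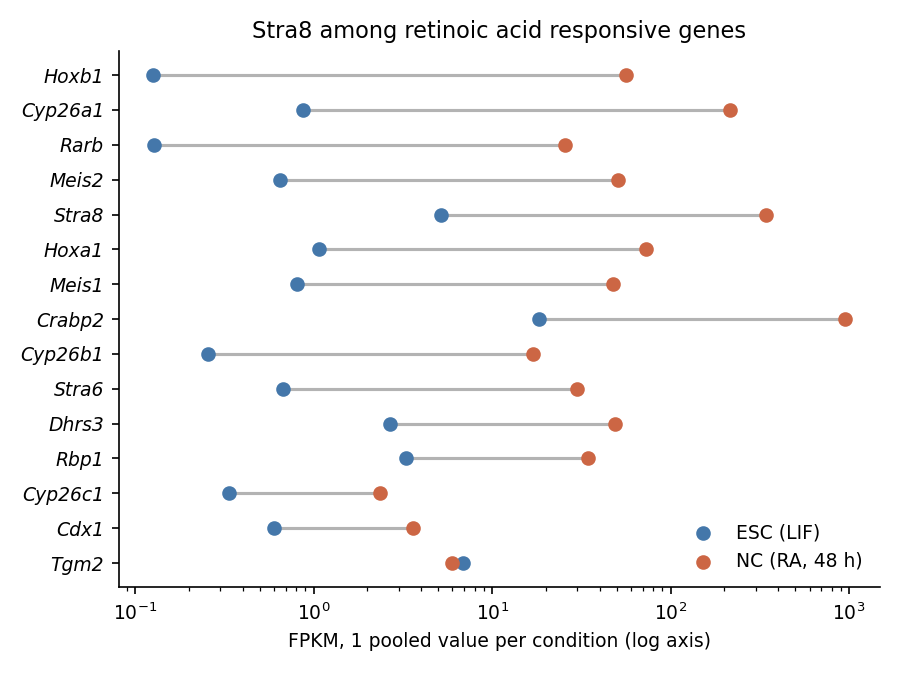
FPKM in ESCs (blue) and NCs (orange) of 15 RA responsive genes on a log axis, ordered by the log2 difference, 1 pooled value per condition. Stra8 is at place 5 from the top and ends at 340.2 FPKM, below Crabp2 alone.

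Of the members that act in germ cells before meiosis, Sohlh2 and Dazl were higher and Ddx4 was within 2-fold. Sohlh2 (chromosome 3, 55182028 to 55209957, plus strand), a helix-loop-helix factor of spermatogonia and young oocytes, had 11.2 FPKM in ESCs against 28.5 in NCs, a difference of 1.34. Dazl (chromosome 17, 50279395 to 50293636, minus strand), an RNA-binding protein that prepares germ cells for meiosis, had 4.35 and 9.46 FPKM, a difference of 1.10. Ddx4 (chromosome 13, 112598333 to 112652475, minus strand), the germ cell RNA helicase VASA, had 6.95 and 11.7 FPKM, a difference of 0.74. Of 15 listed meiotic entry genes, 14 were in the table and 11 passed the filter, of which 5 were higher and 1 was lower. The 5 were Stra8, Sohlh2, Dazl, Sohlh1 and Rbm46. Sohlh1, the partner of SOHLH2, went from 0.357 to 2.50 FPKM and Rbm46, an RNA-binding protein of meiosis, from 0.682 to 1.796 FPKM, so both were low in either condition. Zglp1, a factor of the oogenic program, was the lower one, from 5.53 to 2.29 FPKM. The MEIOSIN gene was not matched to an entry and was not analysed here. Gm1564, the table's name for Meioc, which encodes a partner of YTHDC2 in meiotic prophase, had 12.1 FPKM in ESCs against 8.58 in NCs. Sohlh1, Rbm46 and Zglp1 were chosen after their values were seen.

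The cohesin genes differed in opposite directions. Rec8 (chromosome 14, 55618037 to 55625395, plus strand), the meiotic kleisin that closes the cohesin ring, had 17.0 FPKM in ESCs against 59.8 in NCs, a difference of 1.81. Smc1b (chromosome 15, 85064689 to 85131964, minus strand), the meiotic SMC subunit, had 8.05 and 1.78 FPKM, a difference of -2.12. Stag3 (chromosome 5, 138280240 to 138312393, plus strand), the meiotic subunit that binds the kleisin, had 21.8 and 8.86 FPKM, a difference of -1.29. These proteins work in 1 complex, yet Rec8 was 3.52-fold higher in NCs while Smc1b was 4.54-fold lower.

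The somatic counterparts of these subunits were nearly level. Rad21 had 105 FPKM in ESCs against 114 in NCs, Smc1a 58.5 and 53.5 FPKM, Stag1 17.5 and 18.0 FPKM, and Stag2 28.5 and 29.7 FPKM. Rec8 thus went from 16.1% to 52.3% of the Rad21 value. Smc1b went from 13.8% to 3.32% of the Smc1a value. Stag3 was at 124% of the Stag1 value in ESCs and at 49.1% of it in NCs. With no spread between replicates, Stag3 cannot be ordered against Stag1 in ESCs. Against Stag2, Stag3 was at 76.7% in ESCs and 29.8% in NCs. All 9 genes of the list of somatic cohesin genes lay within 2-fold, with a median difference of -0.05. The largest in size, -0.60, was that of Wapal, which releases cohesin from chromatin. Smc3, shared by mitotic and meiotic cohesin, had 64.6 and 53.6 FPKM. Pds5b and Pds5a, regulators of the ring, had 13.4 and 16.05 FPKM and 45.4 and 40.8 FPKM.

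**Figure D4:**
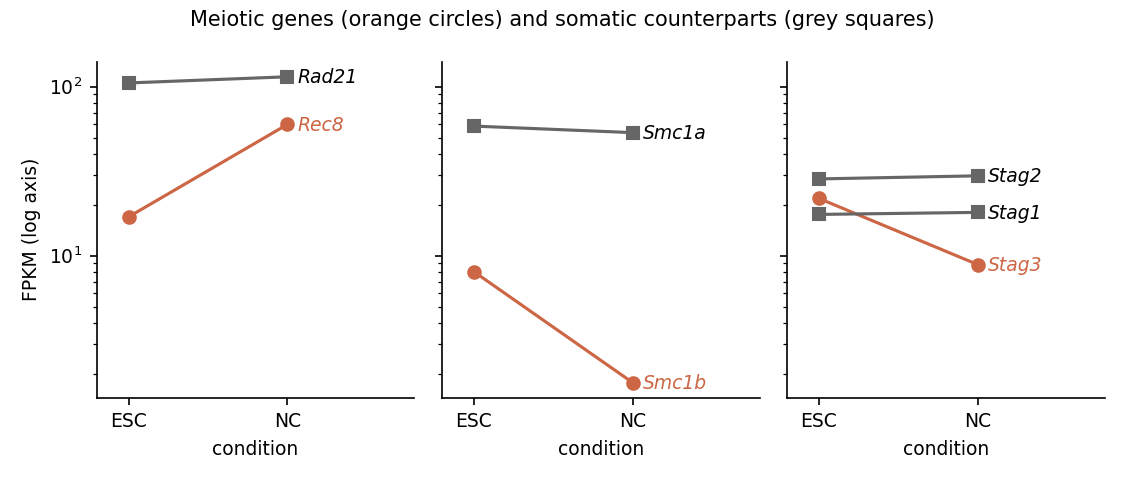
FPKM in ESCs and NCs (log axis) of 3 meiotic cohesin genes (orange circles) and of their somatic counterparts (grey squares), 1 pooled value per point. The grey lines are nearly flat, while Rec8 goes from 17.0 to 59.8 FPKM and Smc1b from 8.05 to 1.78 FPKM.

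Among the genes of the chromosome axis and the synaptonemal complex, Sycp3 stood furthest below its ESC value. Sycp3 (chromosome 10, 88459569 to 88473236, plus strand), a filament protein of the axis, had 41.1 FPKM in ESCs, the highest of the 10 genes there, against 8.73 in NCs, a difference of -2.22. Chpt1, an enzyme of phosphatidylcholine synthesis, lies across it on the other strand, and 43.0% of the 50-base words of Sycp3 transcripts also occur in Chpt1 transcripts. Whether the counting used strand was not given in the sources used here, so that reads of both genes may be mixed. Chpt1 had 10.0 FPKM in ESCs against 10.6 in NCs, and its part in the Sycp3 values was not tested. Sycp1 (chromosome 3, 102818499 to 102936100, minus strand), which bridges the paired axes, had 2.80 and 2.25 FPKM, a difference of -0.31 that shrank to -0.02 when scaled to the same sum, and 5.47% of its words occur in other genes, a Sycp1 pseudogene among them.

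Of 10 listed cohesin and axis genes, 8 passed the filter, with 5 lower and 2 higher. Besides the members, Hormad1, which marks unpaired axes, had 8.56 FPKM in ESCs against 2.08 in NCs. Sycp2, the partner of SYCP3 on the axis, was the other higher gene, from 0.321 to 0.940 FPKM, and was chosen after its value was seen. Of the 6 central element genes, 1 was lower (Syce3, chosen after its value was seen) and none higher. Syce2 went from 79.7 to 41.8 FPKM and Syce1 from 6.97 to 10.5 FPKM, both within the limit. 4930447C04Rik, the table's name for Six6os1, had 8.14 and 5.87 FPKM.

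Among the recombination genes, Dmc1 was within 2-fold. Dmc1 (chromosome 15, 79561497 to 79605109, minus strand), the recombinase specific to meiosis, had 7.53 FPKM in ESCs against 4.99 in NCs, a difference of -0.58. Of 25 listed recombination genes, 22 were in the table and 17 passed the filter, with 6 lower and none higher on log2(FPKM + 0.1). Prdm9, which sets the sites of meiotic breaks and was chosen after its value was seen, lay closest below the limit, with 0.614 and 1.26 FPKM, and was 2.05-fold higher with no pseudocount. Hsf2bp, which brings BRCA2 to meiotic breaks, went from 22.8 to 6.21 FPKM. Cntd1, a crossover regulator, went from 7.87 to 2.61 FPKM. 2410076I21Rik, the table's name for the break-formation gene Rec114, went from 12.8 to 4.798 FPKM, and Mnd1, a cofactor of DMC1, from 58.0 to 27.7 FPKM. Psmc3ip, which encodes the partner of MND1, was level at 32.9 and 35.0 FPKM, and Spo11, the enzyme that makes meiotic breaks, had 0.0158 and 0.104 FPKM. Spo11 was under the filter and is not among the 17. Psmc3ip and Spo11 were chosen after their values were seen.

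Genes of germ cell RNA and transposon control were mostly within the limit. Of 21 listed, 17 passed the filter, with Dazl higher and Tdrd12 lower. Tdrd12, a factor of piRNA production, went from 33.5 to 4.76 FPKM, a difference of -2.79. Pld6, another piRNA factor, had 8.84 and 4.56 FPKM, and Tdrkh, a partner of PIWI proteins, 3.59 and 6.66 FPKM.

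Over the 5 lists (meiotic entry, cohesin and axis, central element, recombination, RNA and transposon control), 62 genes in the table are not among the 10. Of these, 48 passed the filter, 3 were higher in NCs (6.25%) and 11 lower (22.9%). The shares over all entries were 11.9% higher and 10.2% lower. With both conditions scaled to the same sum, 7 of them were higher and 7 lower, beside 17.4% and 6.86% of all entries. The median difference of the 62 genes was -0.26, against a median of 0.00 over all 23235 entries. Of all entries, 4567 were at 0 in ESCs and 4130 in NCs, while none of the 62 genes was. Over the 13955 entries past the filter the median was -0.03.

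**Figure D5:**
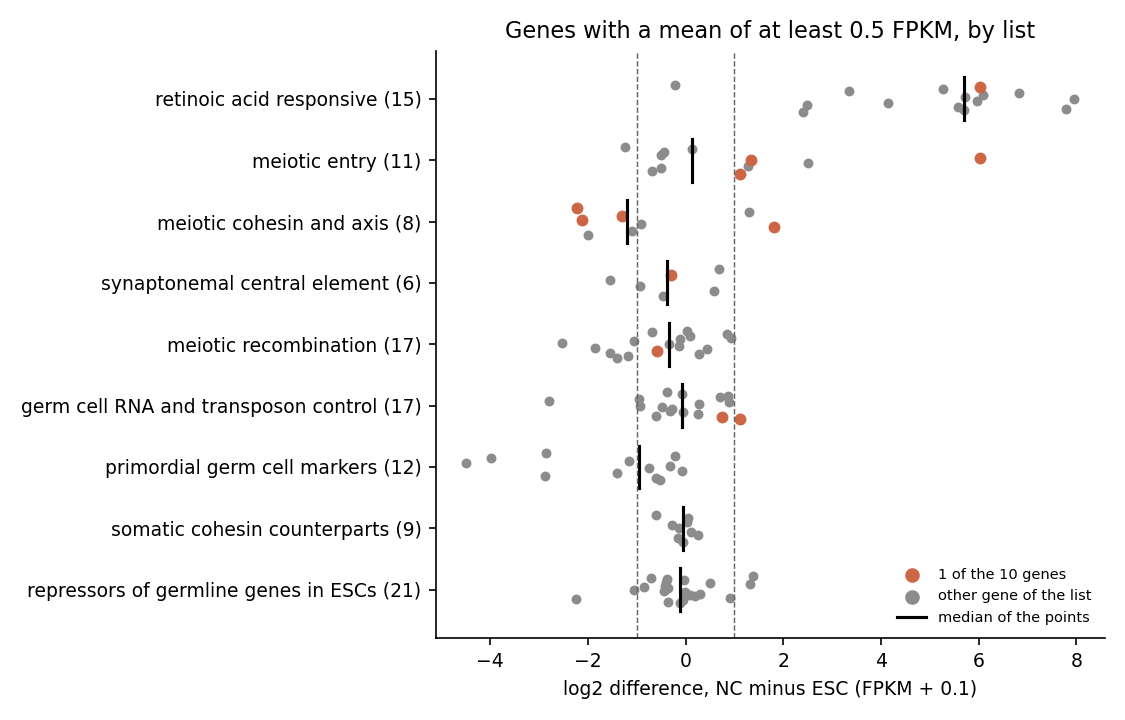
Log2 difference between NCs and ESCs (FPKM + 0.1) for each gene with a mean of at least 0.5 FPKM, by list, with the number of genes plotted in brackets, the 10 genes in orange, other genes in grey and the median of the plotted genes as a bar. Stra8, put on both the RA responsive and the meiotic entry lists, lies at 6.02, among the RA responsive genes and far from the other meiotic entry genes. The lists were chosen with earlier results of these data known. The somatic counterparts cluster around 0.

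Genes that hold germline genes silent in ESCs were also read. They include subunits of a Polycomb complex with E2F6, MGA and MAX, and DNA and histone methyltransferases. Of 21 listed, 17 were within the limit, 2 were higher and 2 lower, and the median difference was -0.12. Each count of 2 is 9.52% of the list, near the 11.9% higher and 10.2% lower over all entries. Dnmt3b, a DNA methyltransferase that sets new marks, went from 105 to 22.1 FPKM. L3mbtl2, a chromatin-binding subunit of that complex, went from 41.1 to 19.8 FPKM. Yaf2 and Ring1, further subunits, were the higher genes, from 8.79 to 23.2 FPKM and from 4.09 to 10.3 FPKM. Of 17 germline genes known for methylated promoters, 16 passed the filter, with 4 higher and 3 lower, and the median difference of all 17 was 0.74. The higher ones were Dazl and, chosen after their values were seen, Taf7l, Slc25a31 and 1700013H16Rik. Sycp3, Hormad1 and Zbtb32, a zinc finger gene, were lower, the last from 9.20 to 2.20 FPKM.

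Cell type markers were read beside these results, and their part in them was not tested. Over all entries past the filter, 11.9% were higher and 10.2% lower. All 8 pluripotency markers were lower in NCs, with sums of 6039 FPKM in ESCs against 909 in NCs. Esrrb, a nuclear receptor of naive pluripotency, went from 128 to 2.94 FPKM and Tdgf1, a NODAL co-receptor, from 564 to 1.10 FPKM. Of 12 markers of primordial germ cells, the embryonic precursors of gametes, 6 were lower and none higher. Dppa3 went from 58.6 to 7.85 FPKM, Tfap2c from 34.0 to 4.59 FPKM and Ifitm3 from 201 to 75.5 FPKM. Pou5f1, on this list as well as that of pluripotency, went from 832 to 37.1 FPKM. Of the 15 spermatocyte and spermatid genes, 11 were under the filter, 5 were listed at 0 in ESCs and 3 in NCs, and no level exceeded 4.15 FPKM. The 1 lower gene was Ldhc, a lactate dehydrogenase of the testis, chosen after its value was seen. Their sums were 11.9 FPKM in ESCs against 9.81 in NCs.

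All 6 markers of the 2-cell-like state, a minor fraction of ESC cultures, were higher in NCs, with sums of 11.4 and 219.5 FPKM. Zscan4d went from 1.91 to 53.9 FPKM and Zscan4f from 2.20 to 47.0 FPKM, and reads of the near-identical Zscan4 copies may be split among them. Zscan4c went from 2.36 to 40.5 FPKM and Tcstv1 from 0.460 to 10.3 FPKM. Of 7 markers of neural progenitors and neurons, 2 were higher (Pax6 and Sox1) and 1 lower (sums of 54.9 and 116 FPKM). Pax6 went from 3.64 to 65.2 FPKM and Sox1 from 1.77 to 21.8 FPKM, whereas the neuronal tubulin Tubb3 went from 33.4 to 7.54 FPKM. Dcx, a marker of young neurons, went from 0.0140 to 0.334 FPKM and Neurog2 from 0.0436 to 0.913 FPKM. Both were under the filter and were chosen after their values were seen. Nes, with 12.9 FPKM in ESCs against 18.3 in NCs, and Map2, with 3.18 against 2.35, were within 2-fold. Map2 was also chosen after its value was seen. Of 7 primitive endoderm markers 5 were higher (Dab2 and, chosen after their values were seen, Foxa2, Sox17, Pdgfra and Gata6), with sums of 17.9 and 42.1 FPKM, and Dab2 went from 9.004 to 19.3 FPKM. Of 7 fibroblast markers 4 were higher (Col1a1, Col1a2 and, chosen after their values were seen, Col3a1 and Dcn) and 1 lower, with sums of 19.8 and 44.1 FPKM, and Col1a2 went from 3.47 to 23.3 FPKM and Thy1 from 9.64 to 1.799 FPKM. Of 6 markers of gonadal somatic cells 3 were higher (Wt1 and, chosen after their values were seen, Sox9 and Foxl2), with sums of 6.41 and 28.8 FPKM. Wt1 went from 2.42 to 20.5 FPKM. Of 7 trophoblast markers Tfap2a was higher and Ascl2 lower, both chosen after their values were seen, with sums of 9.53 and 10.95 FPKM.

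The gene whose pair of values lay nearest to that of Stra8 was Id3, an inhibitor of helix-loop-helix factors, with 9.56 FPKM in ESCs against 337 in NCs. Likeness was the distance between genes in the plane of log2(FPKM + 0.1) in both conditions, 0.88 for Id3. Next came Gm20767, Id2, Gm7102 and Dcdc2c, at distances of 1.27 to 1.66. None of the other 9 genes was among the 5 nearest. Dazl lay in a dense part of the plane, and its 5 nearest genes (Gm13375, Rasl11a, Purg, Fbxl16 and Klhl17) were all within a distance of 0.0733. With 2 conditions a likeness of this kind says no more than that the levels were close.

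Levels were compared within each condition on the FPKM scale. In ESCs the order from the highest was Sycp3, Stag3, Rec8, Sohlh2, Smc1b, Dmc1, Ddx4, Stra8, Dazl and Sycp1, over a 14.7-fold range. In NCs it was Stra8, Rec8, Sohlh2, Ddx4, Dazl, Stag3, Sycp3, Dmc1, Sycp1 and Smc1b, over a 192-fold range. Neighbours such as Smc1b and Dmc1 in ESCs (8.05 and 7.53 FPKM) or Stag3 and Sycp3 in NCs (8.86 and 8.73 FPKM) cannot be ordered with no spread between replicates. Counting error alone was small for all 10 by an estimate of fragment counts. From the steps in the lowest FPKM values of genes with a single transcript, 1 fragment on 1 kb was worth about 0.0138 FPKM in ESCs against 0.0135 in NCs. On that scale the 10 genes rested on about 600 fragments or more in ESCs and about 506 or more in NCs, and 3 fragments, the floor, came to at most 0.0426 FPKM.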

How the data were processed

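RNA from 3 ESC and 3 NC samples of E14Tg2a, each from 2 plates, was sequenced by the authors on an Illumina HiSeq from TruSeq libraries. Per the labels and the study's methods, reads were aligned to mm10 with TopHat 2.0.8 and Bowtie 2.1.0, assembled with Cufflinks 2.0.2 and compared with Cuffdiff. The deposited FPKM values are 1 per gene and condition. The heading of the NC column reads FPK and was taken as FPKM. The annotation release is not given in the sources used here. The authors' fold changes, test statistics, p-values and q-values in the same table were not used. With no replicate values, no test was made.

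Differences were computed on log2(FPKM + 0.1), with a 2-fold limit and a mean of at least 0.5 FPKM, over all 23235 entries. Names in the lists were matched through RefSeq synonyms. Positions and transcripts are those of GENCODE M21 on GRCm38, the assembly mm10 denotes. Fragment steps assumed fragments of 200 bases and the longest transcript of a gene. They were sought in a preset range of low values. Its fullest bin held 76 of 191 values in ESCs and 58 of 125 in NCs. The computation was tested on simulated data. From each list, up to 4 genes with a mean of at least 5 FPKM were named by the size of the difference, besides the members and the somatic counterparts. Members and lists were chosen with earlier results of these data known. Protein comparisons were planned and not made, as no protein sequences were used here. Some planned list genes are not reported here. Depth per sample was unknown. Python 3.11.15, numpy 2.4.6, pandas 2.3.3 and matplotlib 3.10.9 were used.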

Additional observations from a re-analysis of the deposited data

How the results depend on the processing

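No paired analysis was possible because the table holds 1 pooled value per condition, and for the same reason no replicate could be left out in turn. The 10 alternatives were pseudocounts of 1, 0.01 and none, no filter or a filter of 1 FPKM, centring on the median, scaling to the same sum, limits of 1.5- and 4-fold, and summing entries of the same name. The Stra8 difference stayed between 5.79 and 6.31 over the alternatives other than the fold limits, which do not alter it. No difference of the 10 genes changed sign. With a limit of 4-fold, 1 of the 10 genes (Stra8) was higher in place of 4. At that limit 2 (Sycp3 and Smc1b) were lower in place of 3. Of all entries past the filter, 4.32% were then higher and 3.25% lower. Of the 62 other genes of the meiosis and germ cell lists, 48 passed the filter. Of these, 3 were higher and 11 lower, beside 11.9% and 10.2% of all entries past it. The counts were 9 and 18 with a limit of 1.5-fold, beside 20.5% and 19.0% of entries. They were 1 and 2 with a limit of 4-fold, beside 4.32% and 3.25%. When scaled to the same sum they were 7 and 7, beside 17.4% and 6.86%. A pseudocount of 1 gave 1 higher and 8 lower, beside 7.7% and 6.98%. The limits change the counts by their own construction, and so do the pseudocount and the scaling, which shift the differences. By the fragment counts estimated for the 10 genes, counting error was small beside the 2-fold limit, while the spread between replicates is unknown for all of them.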
